A study of Mus musculus with 8 samples.

Results

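The tumor suppressor p53 and 9 genes that act around it in the response to DNA damage were examined in fiber cells (FC) of the mouse lens, after cigarette smoke (CS) exposure and in untreated control (Ct) mice. The genes are Trp53, which encodes p53, its inhibitor Mdm2, the p53 targets Cdkn1a, Ccng1 and Gadd45a, the nucleotide excision repair genes Ddb2 and Xpc, and the base excision repair genes Ogg1, Apex1 and Parp1. They were chosen by gene symbol, and all 10 were found among the 35275 genes listed. The RNA of 8 libraries was sequenced, 4 from untreated Ct (CT-FC) and 4 from CS-exposed mice (CS-FC), each a pool of FC from the right eyes of 4 C57BL/6J mice (C57BL/6 in the labels). CS-exposed mice, whose dams entered the smoke chamber late in pregnancy, were in it from birth for 5 hours a day on 5 days a week over 3.5 months, and untreated Ct mice of the same age were kept in the animal facility. Both groups held males and females, but which pools were male and which female was not given for each library. Expression is given as FPKM, the fragments on a gene scaled by its transcript length and by the depth of the library, so that levels can be compared between genes as well as between libraries. Fold changes are of CS-exposed over untreated Ct on the log2(FPKM + 0.1) scale, which understates the change of low genes.

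In most cells p53 is made all the time and is degraded, because the ubiquitin ligase MDM2 marks it for destruction. DNA damage activates the kinases ATM and ATR, which phosphorylate p53 and loosen its hold by MDM2, and p53 then binds DNA and switches on genes that stop the cell cycle, repair DNA or start apoptosis. Much of this control acts on the p53 protein, so the RNA of its targets is the readout most often used. Cigarette smoke carries polycyclic aromatic hydrocarbons and oxidants: bulky adducts are removed by nucleotide excision repair and oxidized bases by base excision repair. Lens FC are a special case, because they leave the cell cycle as they differentiate from the epithelium at the lens equator and later lose their nuclei, so that the mature fibers in the lens core cannot transcribe new RNA.

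The libraries carried the markers of lens FC. All 12 lens fiber markers reached at least 1 FPKM, and their summed level was 324210 to 333630 FPKM in untreated Ct and 316110 to 327550 FPKM in CS-exposed libraries. Lens epithelium markers were also present, with 9 of 10 at 1 FPKM or more and sums of 317 to 378 FPKM and 320.1 to 353 FPKM, respectively. Of the 9 epithelium markers tested 7 had log2 fold changes below 0, beside 4775 of the 9794 genes tested, and 1, Npnt, was lower in CS-exposed libraries at an unadjusted limma p under 0.05, beside 2.08% of all genes tested. Rod photoreceptor markers were low but higher in CS-exposed libraries, at 33.3 to 98.1 FPKM in sum against 11.3 to 30.6 FPKM, and 9 of the 10 rod markers tested were higher at an unadjusted limma p under 0.05, beside 2.75% of all genes tested. Of these 10, 6 reached the minimum of 1.0 FPKM through the CS-exposed mean alone. Pigment epithelium markers summed to 1.21 to 3.26 FPKM in untreated Ct and 2.17 to 13.1 FPKM in CS-exposed libraries, where Best1 was at 0 in all 8. Only 3 of 10 reached the minimum for the test, each through the CS-exposed mean alone, so no count of calls is read from this list. Blood and immune markers summed to 0.343 to 2.32 FPKM and 0.910 to 21.0 FPKM, where Hba-a1 had an unadjusted limma p under 0.05 but reached the minimum through the CS-exposed mean alone, and fibroblast and endothelial markers to under 1 FPKM in every library. The part of these other cells in the values of the p53 and repair genes was not tested. Depth differed little between libraries, with 8016681 to 10405215 reads on the tested genes.

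The promoters were searched for exact copies of a sequence motif of p53 next to the transcription start. Of the 10 genes, 8 matched a RefSeq promoter window, made of 250 bases before and 50 bases after the transcription start (GRCm38.p6). Ddb2 and Xpc had no window. Each window was searched on both strands for the p53 consensus decamer, a 10-base motif that p53 binds as adjacent copies, and 5 genes held at least 1. The 5 windows are printed because they belong to p53 itself, its inhibitor and the 3 classical targets whose levels are followed through the rest of the text. Decamers are in capitals, and each sequence reads 5′ to 3′ on the strand of the gene. Among all 32851 windows searched in the same way, 8.36% held the decamer, and of all genes with a window 9.55% did. A match is a description of the letters and not evidence of a bound site. Copies that differ from the consensus by even 1 base were not counted or marked. The windows were as follows, in the order Trp53 (chr11:69580109-69580408, plus strand), Mdm2 (chr10:117710709-117711008, minus strand), Cdkn1a (chr17:29090729-29091028, plus strand), Ccng1 (chr11:40755237-40755536, minus strand) and Gadd45a (chr6:67037358-67037657, minus strand).
Trp53: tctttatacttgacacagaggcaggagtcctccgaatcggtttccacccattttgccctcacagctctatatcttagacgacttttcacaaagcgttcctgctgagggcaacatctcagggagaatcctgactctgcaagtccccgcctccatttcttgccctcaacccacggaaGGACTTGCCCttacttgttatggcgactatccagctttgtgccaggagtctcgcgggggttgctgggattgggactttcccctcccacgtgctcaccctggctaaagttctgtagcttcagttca
Mdm2: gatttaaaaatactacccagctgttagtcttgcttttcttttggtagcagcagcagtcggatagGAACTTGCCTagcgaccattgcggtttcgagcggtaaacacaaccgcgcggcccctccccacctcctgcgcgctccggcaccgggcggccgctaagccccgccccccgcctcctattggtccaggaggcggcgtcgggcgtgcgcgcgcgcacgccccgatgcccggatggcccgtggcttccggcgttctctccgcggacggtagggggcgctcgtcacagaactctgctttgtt
Cdkn1a: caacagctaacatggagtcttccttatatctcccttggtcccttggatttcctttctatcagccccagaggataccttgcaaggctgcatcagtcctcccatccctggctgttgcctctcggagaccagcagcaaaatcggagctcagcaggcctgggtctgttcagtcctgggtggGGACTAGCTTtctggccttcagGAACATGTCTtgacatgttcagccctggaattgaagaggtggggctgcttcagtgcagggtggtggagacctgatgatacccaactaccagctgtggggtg
Ccng1: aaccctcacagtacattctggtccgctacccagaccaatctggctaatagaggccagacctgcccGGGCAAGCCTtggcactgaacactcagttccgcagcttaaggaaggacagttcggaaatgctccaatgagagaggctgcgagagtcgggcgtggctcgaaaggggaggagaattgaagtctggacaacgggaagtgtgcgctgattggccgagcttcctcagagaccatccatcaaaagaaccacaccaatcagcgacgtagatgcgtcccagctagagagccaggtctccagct
Gadd45a: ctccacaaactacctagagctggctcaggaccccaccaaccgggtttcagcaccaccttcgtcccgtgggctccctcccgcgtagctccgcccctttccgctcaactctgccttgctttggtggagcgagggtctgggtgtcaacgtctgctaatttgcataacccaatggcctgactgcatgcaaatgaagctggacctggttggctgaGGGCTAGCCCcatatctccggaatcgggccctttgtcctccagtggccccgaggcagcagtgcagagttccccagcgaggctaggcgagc

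The Cdkn1a window held 2 decamers, 73 and 51 bases before the start, with 12 bases between them. Such an arrangement, 2 decamers with at most 13 bases between them, was found in 0.0731% of all windows. The single decamers lay 75 bases before the start in Trp53, 186 bases in Mdm2, 185 bases in Ccng1 and 40 bases in Gadd45a. A further window at a downstream start of Cdkn1a held no decamer, and neither did those of Parp1, Ogg1 and Apex1.

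The 10 genes spanned a wide range of levels, and genes differed in level far more than the groups did. Ccng1, at 126 to 193 FPKM over the 8 libraries, was 7.04 times as high as Mdm2, the next gene, and higher in every library. Mdm2 and Gadd45a were close, with a ratio of 1.12 and overlapping ranges, and Mdm2 was the higher of both in 7 of 8 libraries. Parp1 lay 3.33 times below Gadd45a and 1.81 times above Ddb2, with no overlap on either side. Ddb2, Apex1, Xpc and Trp53 could not be put in order, since each neighbor differed by a ratio of at most 1.09, the ranges overlapped, and the upper gene was higher in only 4 or 5 of 8 libraries. Trp53 was 1.76 times as high as Ogg1 with no overlap. Cdkn1a was the lowest, 2.996 times below Ogg1, and lower than Ogg1 in all 8 libraries although their ranges overlapped. The p53 targets Ccng1 and Cdkn1a thus stood at the opposite ends of the order.

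**Figure D1:**
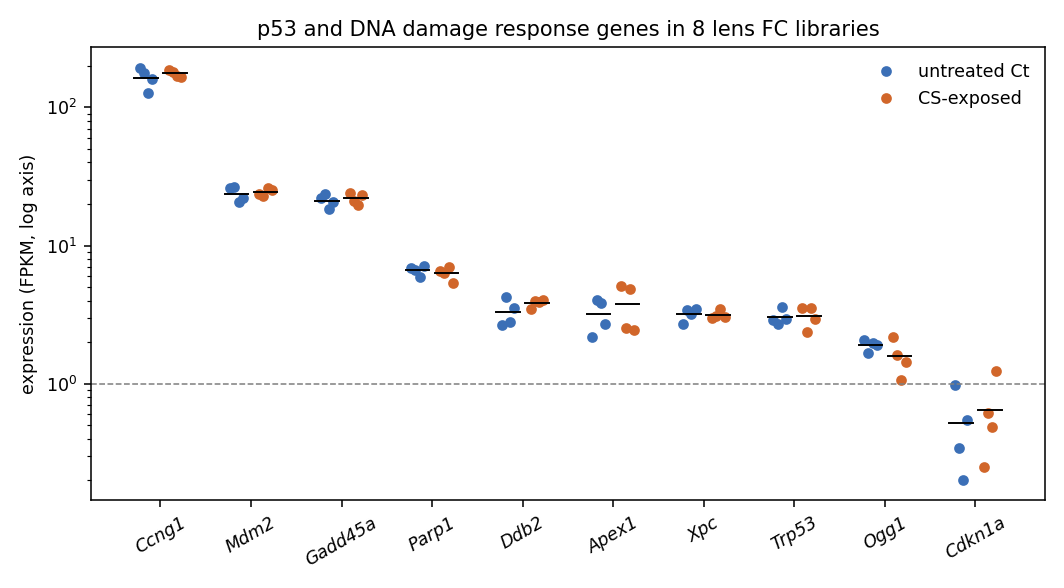
Expression of the p53 and DNA damage response genes in lens FC. Each point is 1 library on a log axis of FPKM, bars are the means of 4 untreated Ct and 4 CS-exposed libraries, and the dashed line marks 1 FPKM; Ccng1 lies at 126 to 193 FPKM, Cdkn1a mostly below 1 FPKM, and the points of both groups overlap for every gene.

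The main question for these genes was whether 3.5 months of CS exposure changed their RNA. None of the 10 differed between groups beyond the spread of the libraries. Of the 9 that reached a mean of 1.0 FPKM in either group and were tested, 0 had an unadjusted limma p under 0.05, where 473 of all 9794 genes tested (4.83%) did. After Benjamini-Hochberg adjustment over all genes 0 of 9 passed, against 1 gene (0.0102%) of the whole. The values of the groups overlapped for all 10, where 302 of the genes tested (3.08%) had groups that did not overlap. The log2 fold changes of the 9 ran from -0.29 (Ogg1) to 0.23 (Ddb2), 6 above and 3 below 0, with a median of 0.05 beside 0.0043 over all genes tested.

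Trp53 was expressed at a low level. In untreated Ct libraries 1 to 4 it stood at 2.87, 2.69, 3.59 and 2.94 FPKM, and in CS-exposed libraries 1 to 4 at 3.56, 2.37, 3.53 and 2.92 FPKM. The groups covered nearly the same range. Means were 3.02 ± 0.390 FPKM and 3.09 ± 0.566 FPKM (SD, n = 4 each). On the log2 scale the groups differed by 0.02 (SE 0.15, limma adjusted p = 0.995). Its pseudogene Trp53-ps, which could share reads with it, was listed at 0 in all 8 libraries. Mdm2, which both restrains p53 and is switched on by it, stood at 26.0, 26.4, 20.6 and 22.0 FPKM in untreated Ct and at 23.7, 22.9, 26.1 and 25.4 FPKM in CS-exposed libraries. The lowest values of Mdm2 were in untreated Ct, and its highest value was as well. The group means were 23.8 ± 2.87 FPKM and 24.5 ± 1.499 FPKM (SD, n = 4 each). The log2 fold change of Mdm2 was 0.05 (SE 0.09, 95% interval -0.14 to 0.24, limma adjusted p = 0.985).

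Cdkn1a encodes p21, the inhibitor of cyclin-dependent kinases through which p53 stops the cell cycle, and it is among the most responsive p53 targets in many tissues. Here it stood at 0.974, 0.345, 0.203 and 0.550 FPKM in untreated Ct and at 0.248, 0.612, 0.485 and 1.23 FPKM in CS-exposed libraries. The ranges overlapped, with the highest library in the CS-exposed and the lowest in the untreated Ct group, and only 1 of 8 passed 1 FPKM. These values rest on 9 to 51 reads per library. The means were 0.518 ± 0.336 FPKM and 0.645 ± 0.421 FPKM (SD, n = 4 each), under the level required for the test. In the fit without a minimum level the log2 fold change was 0.26 with a 95% interval of -0.86 to 1.38 (exact permutation p = 0.629, two-sided), and the upper end of this interval is a 2.60-fold higher level.

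Ccng1, which encodes cyclin G1, a p53 target that recruits a phosphatase to MDM2, was the most abundant of the 10 genes. Its values were 193, 177, 126 and 160.2 FPKM in untreated Ct and 188, 181, 169.9 and 166 FPKM in CS-exposed libraries. The CS-exposed libraries lay close together, inside the range of the untreated Ct libraries, and untreated Ct replicate 3 was the lowest of all 8. The means were 164 ± 28.6 FPKM and 176 ± 10.04 FPKM (SD, n = 4 each). Its log2 fold change was 0.12 (SE 0.11, 95% interval -0.11 to 0.35, limma adjusted p = 0.975). Gadd45a encodes a small damage-inducible protein that binds PCNA and stress kinases. It stood at 22.0, 23.7, 18.4 and 20.6 FPKM in untreated Ct and at 24.1, 21.0, 19.5 and 23.1 FPKM in CS-exposed libraries. The groups overlapped almost fully, and untreated Ct replicate 3 was again the lowest library. Means of 21.2 ± 2.27 FPKM and 21.9 ± 2.05 FPKM (SD, n = 4 each) gave a log2 fold change of 0.05 (SE 0.09, limma adjusted p = 0.985). On the opposite strand, 19.1% of the exon bases of Gadd45a are shared with E230016M11Rik, which was listed at 0.552 to 1.43 FPKM.

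In nucleotide excision repair, Ddb2 and Xpc encode damage sensors of the genome-wide branch, and both are p53 targets in human cells. Ddb2 stood at 2.67, 4.21, 2.79 and 3.54 FPKM in untreated Ct and at 3.47, 3.96, 3.88 and 4.06 FPKM in CS-exposed libraries. Untreated Ct replicates 1 and 3 were lower than every CS-exposed library, while untreated Ct replicate 2 was the highest of all 8. Its means were 3.30 ± 0.717 FPKM and 3.84 ± 0.262 FPKM (SD, n = 4 each). The log2 fold change of 0.23 (SE 0.14, 95% interval -0.08 to 0.55) was the largest upward value among the 9 tested and did not pass the test (limma adjusted p = 0.956; exact permutation p = 0.257, two-sided). Without untreated Ct replicate 2 it was 0.36 with an unadjusted limma p of 0.0211. Xpc, which recognizes helix-distorting lesions, was steadier, at 2.72, 3.42, 3.22 and 3.46 FPKM in untreated Ct and at 3.01, 3.09, 3.46 and 3.04 FPKM in CS-exposed libraries. The top value of both groups was nearly the same. The Xpc means were 3.21 ± 0.341 FPKM and 3.15 ± 0.208 FPKM (SD, n = 4 each). The groups thus differed in log2 by -0.02 (SE 0.11, limma adjusted p = 0.995).

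Ogg1 encodes the glycosylase that removes 8-oxoguanine, the most common oxidized base. It stood at 2.07, 1.68, 1.96 and 1.90 FPKM in untreated Ct and at 2.19, 1.62, 1.07 and 1.44 FPKM in CS-exposed libraries. Although 3 of 4 values after CS exposure were under the whole untreated Ct range, CS-exposed replicate 1 was the highest of all 8. The means were 1.90 ± 0.167 FPKM and 1.58 ± 0.468 FPKM (SD, n = 4 each), on 35 to 74 reads per library. The log2 fold change of -0.29 (SE 0.20, 95% interval -0.73 to 0.15) was the largest downward value among the 9 and did not pass the test (limma adjusted p = 0.956; exact permutation p = 0.229, two-sided). Without CS-exposed replicate 1 it was -0.45 with an unadjusted limma p of 0.0364.

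Apex1, the endonuclease that nicks DNA at the abasic sites left by glycosylases, was the most variable of the tested genes. Its values were 2.19, 4.01, 3.85 and 2.72 FPKM in untreated Ct and 5.13, 2.52, 4.88 and 2.46 FPKM in CS-exposed libraries. In each group a pair of libraries was high and a pair was low, and the CS-exposed group held both the highest library and 2 of the 3 lowest. Means of 3.19 ± 0.880 FPKM and 3.75 ± 1.45 FPKM (SD, n = 4 each) gave a log2 fold change of 0.18 with a wide 95% interval of -0.40 to 0.77 (limma adjusted p = 0.985). Parp1 encodes the poly(ADP-ribose) polymerase that senses strand breaks. It stood at 6.84, 6.60, 5.94 and 7.16 FPKM in untreated Ct and at 6.49, 6.29, 6.97 and 5.37 FPKM in CS-exposed libraries. The lowest library was CS-exposed and the highest was untreated Ct, with the other 6 interleaved. Its means were 6.63 ± 0.517 FPKM and 6.28 ± 0.669 FPKM (SD, n = 4 each). This is a log2 difference of -0.08 (SE 0.10, limma adjusted p = 0.985).

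The exons of some of these genes lie over exons of a neighbor on the opposite strand (GRCm38, GENCODE M21), and the setting of strand in the counting is not given in the sources used here. Apex1, at chr14:50924968-50927139, shares 61.7% of its exon bases with Pip4p1, listed as Tmem55b at 8.89 to 11.2 FPKM. Ddb2, at chr2:91211572-91236982, shares 23.8% with Acp2, listed at 3.02 to 3.93 FPKM. Ogg1, at chr6:113326972-113335068, shares 10.6% with Camk1, listed at 2.15 to 3.15 FPKM. Cdkn1a shares 7.68% with AC167363.2, also on the opposite strand, and Parp1 shares 0.132% with Mir6904 on the same strand. Without strand, reads on bases shared with the opposite strand cannot be assigned to either gene. Trp53 at chr11:69580359-69591873, Mdm2 at chr10:117688875-117710758, Ccng1 at chr11:40748552-40755311 and Xpc at chr6:91489305-91515888 shared no exon base with another gene.

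How large a change could have been missed depended on the gene. For Ccng1, Mdm2 and Gadd45a the 95% intervals, read as folds, ran from 0.903 to 1.27. Among the tested genes they were widest for Apex1, with an upper end of 1.70, and for Ogg1, with a lower end of 0.602. The error from counting reads could be set beside the spread between libraries. Ccng1 had 10178 to 14651 reads per library, for which counting alone gives an error of 0.899% of the mean, while its libraries spread by 12.6% (SD within groups). For Xpc the counting error was 5.85% and the spread 8.89%, and for Ogg1 they were 13.1% and 20.2%. Apex1 spread by 34.6% against a counting error of 10.6%. In all 10 genes the libraries spread by more than counting alone would give, 1.52 times as much in Xpc and 14.0 times as much in Ccng1. The counting error covers the sampling of reads only.

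**Figure D2:**
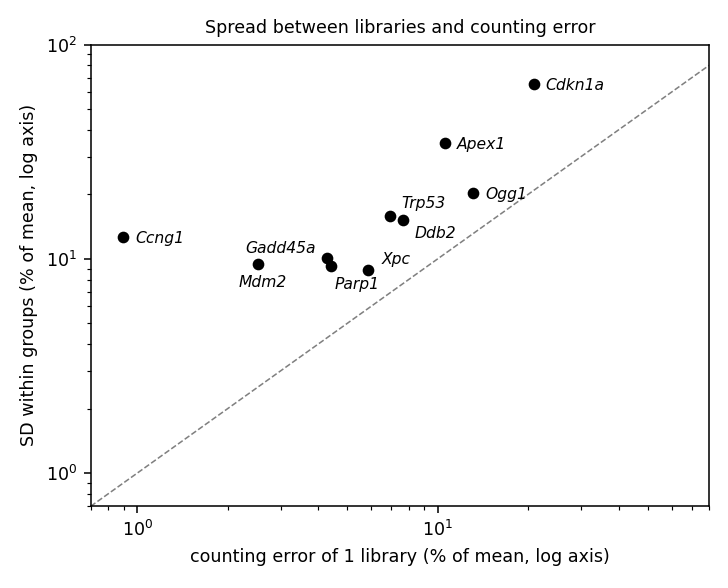
Spread between libraries against counting error. Each point is 1 gene, with the counting error of 1 library on the horizontal axis and the SD within groups on the vertical axis, both in percent of the mean on log axes; all 10 genes lie above the dashed line of equal values, from Xpc at 8.89% against 5.85% to Cdkn1a at 65.5% against 20.9%.

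The 8 relatives of these genes in the same families differed in level much as the genes themselves did. Among the p21 family, Cdkn1c, the p57 inhibitor that lens fibers are known to require for cell cycle exit, stood at 213 ± 3.42 FPKM in untreated Ct and 208 ± 6.94 FPKM in CS-exposed libraries (SD, n = 4 each). Cdkn1b (p27) stood at 9.50 ± 0.643 FPKM and 10.4 ± 0.687 FPKM, and Cdkn1a below 1 FPKM in both means. Cyclin G1 was likewise far above its relative Ccng2, at 1.60 ± 0.224 FPKM and 1.67 ± 0.503 FPKM. All members of the Gadd45 family were expressed, with Gadd45b at 34.9 ± 3.79 FPKM and 36.6 ± 2.70 FPKM and Gadd45g at 11.6 ± 1.73 FPKM and 11.6 ± 1.43 FPKM, on either side of Gadd45a. In the PARP family Parp3 stood at 6.52 ± 0.167 FPKM and 5.92 ± 0.820 FPKM, near Parp1, and Parp2 at 2.41 ± 0.318 FPKM and 2.87 ± 0.483 FPKM. Apex2 was under the level required for the test, at 0.320 ± 0.136 FPKM and 0.346 ± 0.0960 FPKM. None of the 7 relatives tested had an unadjusted limma p under 0.05, beside 4.83% of all genes tested, and their median log2 fold change was 0.02.

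**Figure D3:**
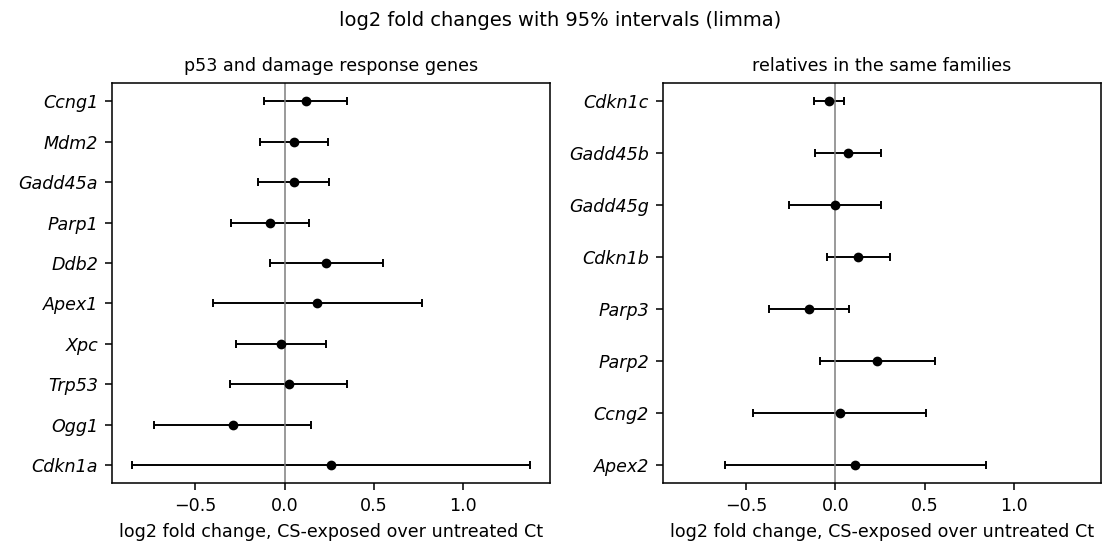
Log2 fold changes of CS-exposed over untreated Ct lens FC with 95% intervals from limma, for the p53 and damage response genes (left) and relatives in the same families (right). Every interval includes 0; the narrowest belongs to Cdkn1c and the widest to Cdkn1a, which with Apex2 comes from the fit without a minimum level.

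Upstream of p53, 8 of 13 control genes were tested and 0 had an unadjusted limma p under 0.05 (4.83% over all genes tested), with a median log2 fold change of -0.06. Mdm4, the partner of MDM2 that blocks the activation domain of p53, stood at 7.19 ± 0.340 FPKM in untreated Ct and 6.88 ± 0.707 FPKM in CS-exposed libraries (SD, n = 4 each). Hipk2, a kinase that phosphorylates p53, stood at 11.6 ± 1.16 FPKM and 11.5 ± 0.835 FPKM. Usp7, which removes ubiquitin from p53 and MDM2, stood at 10.5 ± 0.618 FPKM and 10.8 ± 0.477 FPKM. Of 24 other p53 targets, 23 were listed and 14 tested, and 0 had an unadjusted limma p under 0.05 beside the same 4.83%, with a median log2 fold change of 0.04. Bax, the pore-forming protein of apoptosis, was abundant at 129 ± 18.3 FPKM and 132 ± 7.15 FPKM. Perp, a membrane protein of desmosomes, stood at 69.2 ± 0.657 FPKM and 72.9 ± 3.77 FPKM, and the death receptor Fas at 20.0 ± 2.32 FPKM and 21.2 ± 1.31 FPKM.

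In nucleotide excision repair, 24 of 25 further genes were tested, of which 1 was higher and 1 lower in CS-exposed libraries at an unadjusted limma p under 0.05. The background in these directions was 2.75% and 2.08% of all genes tested. Cetn2, which encodes centrin 2, a subunit of the XPC complex, stood at 3.79, 5.71, 6.39 and 5.42 FPKM in untreated Ct and at 5.05, 7.71, 7.50 and 7.69 FPKM in CS-exposed libraries. All but 1 CS-exposed library lay above every untreated Ct library. Its log2 fold change was 0.39 (SE 0.17, limma unadjusted p = 0.0449 and adjusted p = 0.956, exact permutation p = 0.114). Ercc3, a helicase of the repair and transcription factor TFIIH, stood at 3.18, 2.86, 3.26 and 3.56 FPKM in untreated Ct and at 2.25, 3.21, 2.56 and 2.36 FPKM in CS-exposed libraries. CS-exposed replicate 2 was inside the untreated Ct range and the other 3 below it. The log2 fold change of Ercc3 was -0.31 (SE 0.13, limma unadjusted p = 0.041 and adjusted p = 0.956, exact permutation p = 0.0857). With a replicate block the unadjusted limma p was 0.0022 for Cetn2 (adjusted p = 0.498) and 0.066 for Ercc3. The call of Cetn2 ended with no minimum FPKM, without a variance trend, with limma-voom and without untreated Ct replicate 1 or 4 or CS-exposed replicate 2, 3 or 4. That of Ercc3 ended with limma-voom and without untreated Ct replicate 1, 3 or 4 or CS-exposed replicate 1, 3 or 4. Of the 24 tested, 2 had groups that did not overlap, Ercc2 and Cdk7, beside 3.08% of all genes tested, and both are named after their values were seen. Ercc2 stood at 1.26 ± 0.154 FPKM and 1.67 ± 0.316 FPKM and Cdk7 at 2.09 ± 0.142 FPKM and 2.32 ± 0.0495 FPKM (SD, n = 4 each), and neither passed at an unadjusted limma p under 0.05. The most abundant genes of the list, Ddb1 (the partner of DDB2) at 44.1 ± 2.98 FPKM and 42.1 ± 1.85 FPKM, Rad23b (a partner of XPC) at 42.2 ± 1.29 FPKM and 43.7 ± 2.28 FPKM, and Rpa1 at 39.4 ± 1.32 FPKM and 39.5 ± 1.52 FPKM, did not pass either. Ddb1 was thus more than 10 times as high as Ddb2 in the means of both groups. The median log2 fold change of the list was -0.0043.

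In base excision repair, 14 of 22 further genes were tested and 0 had an unadjusted limma p under 0.05, beside 4.83% of all genes tested. The count was 1 with median centring and 2 with quantile normalization, beside 474 and 488 of all 9794 genes. It was 3 with no minimum FPKM, beside 862 of 21019 genes, where the listed genes under the minimum were tested too. The median log2 fold change was 0.10, with 10 genes above and 4 below 0, beside 5019 above and 4775 below 0 among all genes. Polb, the polymerase that fills the gap after APEX1 has nicked the strand, stood at 16.1 ± 1.97 FPKM and 15.2 ± 1.94 FPKM (SD, n = 4 each). The scaffold Xrcc1 stood at 8.26 ± 1.01 FPKM and 8.20 ± 0.191 FPKM. In the double-strand break response, 12 of 20 genes were tested and 1, Rad50, was higher at an unadjusted limma p under 0.05, with a median log2 fold change of -0.02 over the list. Rad50 reached the minimum of 1.0 FPKM through its CS-exposed mean alone, so its call is no independent result. Rad50, a subunit of the complex that holds broken ends, stood at 0.849, 0.845, 1.21 and 0.804 FPKM in untreated Ct and at 1.18, 1.21, 1.21 and 1.83 FPKM in CS-exposed libraries. Its groups overlapped through untreated Ct replicate 3. The log2 fold change of 0.50 (SE 0.22) had an unadjusted limma p of 0.0466, an adjusted p of 0.956 and an exact permutation p of 0.114, and with a replicate block the unadjusted p was 0.070. Rnf168 stood at 4.30 ± 0.301 FPKM and 4.15 ± 0.343 FPKM, H2afx, the histone marked at breaks, at 3.66 ± 1.40 FPKM and 3.46 ± 1.55 FPKM, and Xrcc6 (Ku70) at 3.05 ± 0.290 FPKM and 2.76 ± 0.272 FPKM. Over all these lists 77 of 109 genes were tested, 2 were higher and 1 lower at an unadjusted limma p under 0.05, beside 2.75% and 2.08% of all genes tested, and 0 passed the adjustment. The 2 higher were Cetn2 and Rad50, and only Cetn2 reached the minimum through both group means.

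**Figure D4:**
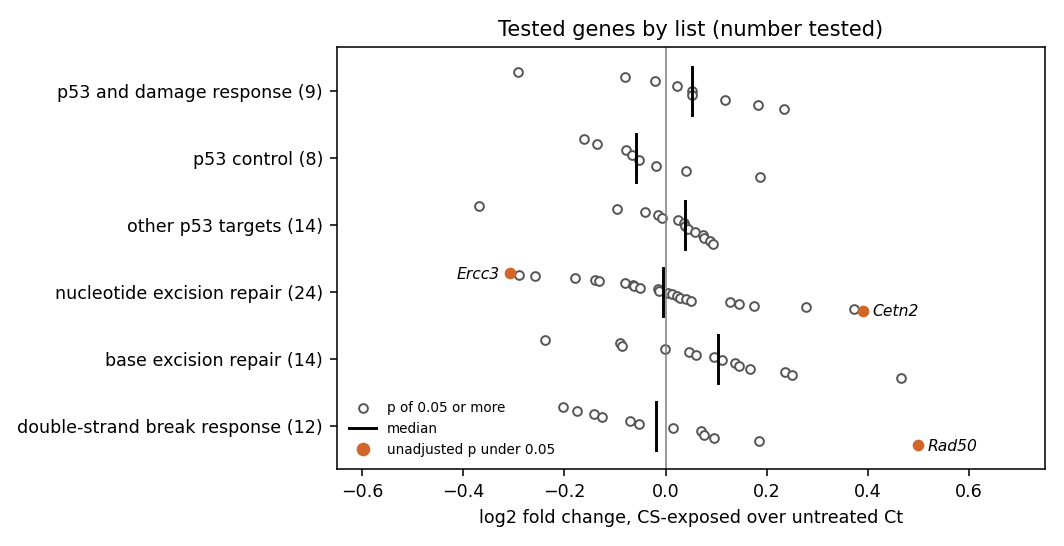
Log2 fold changes of CS-exposed over untreated Ct lens FC by gene list. Each circle is 1 tested gene and black lines are list medians. Filled circles are genes with an unadjusted limma p under 0.05 (Ercc3, Cetn2 and Rad50), of which Rad50 was tested through its CS-exposed mean alone. List medians lie between -0.06 and 0.10.

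Several of the abundant p53 targets had their lowest value in the same untreated Ct library. Of the 9 p53 targets with a mean of at least 10 FPKM, 6 had their lowest value in untreated Ct replicate 3, namely Ccng1, Mdm2, Gadd45a, Bax, Fas and Phlda3. This was noticed after the values were seen, and Phlda3, Sesn1 and Ei24 are named only to complete the count. Among all 2748 tested genes of at least 10 FPKM, 23.9% were lowest in this library. Bax stood at 104 FPKM there and at 125 FPKM or more in the other 7 libraries, and Fas at 17.2 FPKM against 20.0 FPKM or more. Perp, Sesn1 and Ei24 had their lowest value in other libraries. Over all 19 p53 targets tested, at any level, 7 (36.8%) were lowest in untreated Ct replicate 3 and 5 in CS-exposed replicate 4, beside 13.3% and 16.5% of all genes tested. The 19 are the 14 other targets tested and Ccng1, Mdm2, Gadd45a, Ddb2 and Xpc. Untreated Ct replicate 3 also held the highest level of Foxe3, Gja1, Cdh1, Pdgfra, Npnt and Pax6, of 9 lens epithelium markers tested. Among all 9794 genes tested, 1646 were highest there. Foxe3, a transcription factor of the lens epithelium, stood at 64.0 FPKM there and at 17.5 to 34.8 FPKM in the others, Gja1 at 9.25 FPKM against 6.75 FPKM or less, and Cdh1 at 6.22 FPKM against 4.17 FPKM or less. Sox2 at 37.6 FPKM, Wnt7b at 192 FPKM and Cdh2 at 33.3 FPKM were inside the range of the other 7 libraries. The part of epithelial cells in the values of that library was not tested, and in such bulk samples fewer cells of a type and less RNA per cell cannot be told apart. Without untreated Ct replicate 3 the log2 fold changes were -0.0026 for Ccng1, -0.013 for Mdm2, -0.014 for Gadd45a, -0.066 for Bax and 0.018 for Fas, and that of Phlda3 was not computed.

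**Figure D5:**
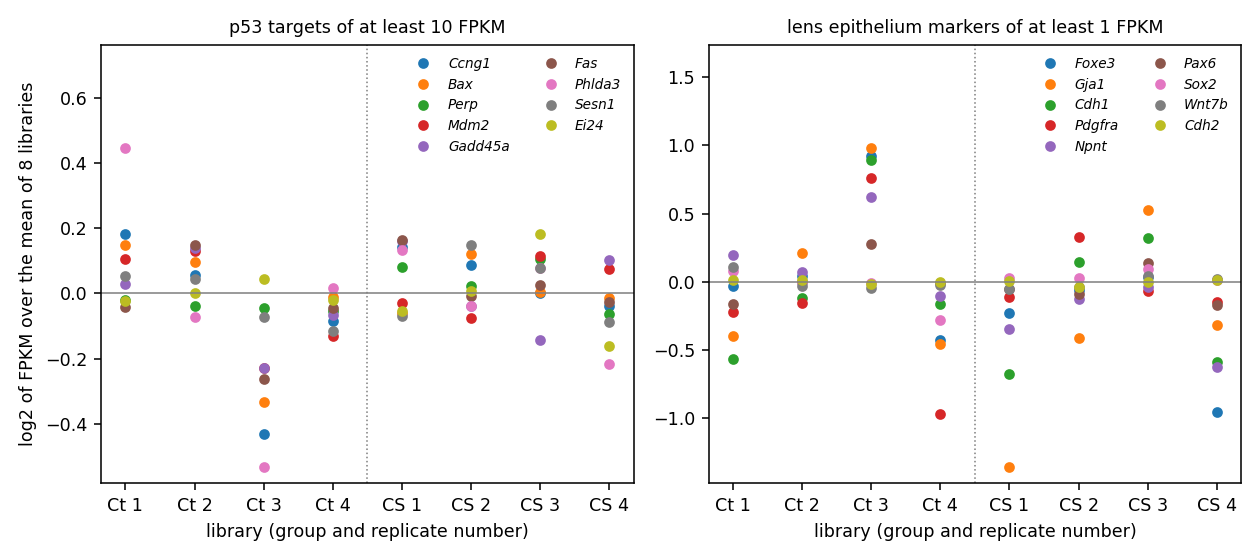
Abundant p53 targets (left) and lens epithelium markers (right) in each library, as log2 of FPKM over the mean of the 8 libraries. In untreated Ct replicate 3 (Ct 3) 6 of 9 targets are at their lowest, and Foxe3, Gja1, Cdh1, Pdgfra, Npnt and Pax6 are at their highest.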

How the data were processed

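RNA of lens FC from 4 pools of CS-exposed and 4 pools of untreated Ct mice was sequenced as paired reads of 150 bases from NEB Next Ultra libraries. Per the labels, the authors aligned reads to GRCm38 with STAR 2.5, used HTSeq 0.6.1 for counting, and deposited FPKM per gene and library. The deposited group means and DESeq2 columns (fold change, p-value and adjusted p-value of the comparison) were not used. The annotation release and the strand setting of the counting are not given in the sources used here.

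Groups and replicate numbers come from the sample titles. Genes whose mean reached 1.0 FPKM in 1 or both groups (9794 of 35275) were fitted as log2(FPKM + 0.1) in limma 3.58.1 under R 4.3.3 (lmFit, then eBayes with a variance trend, two-sided, Benjamini-Hochberg over all genes tested). Exact permutation tests ran over the 70 assignments of 8 libraries to groups, for which the smallest p is 0.0286. Steps in the FPKM gave whole reads for 99.7% of tested genes (tolerance 0.05 reads), which set the depth, read counts and counting errors; the relative depth of the libraries was 0.91 to 1.17, and the median tested gene had 314 reads. Intervals on reads cover counting error only. Promoter windows are from RefSeq (GRCm38.p6) and exon overlaps from GENCODE M21. The fit was tested on simulated data. Alternatives were pseudocounts of 1 and 0.01, no minimum and a minimum of 5 FPKM, median centring, quantile normalization, a robust trend or none, limma-voom on recovered reads, a replicate block and leaving out each library.

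The genes and the lists around them were chosen with earlier results of these data known. The text names, besides the 10 genes and their family relatives, every listed gene with an unadjusted p under 0.05 and the 3 tested genes of each list with the highest mean FPKM, of which 1 is not reported here. Ercc5, Parp2 and Apex2 stand in more than 1 list. One p53 target of the lists, Tigar, had no row under this symbol. Proliferating cell markers summed to 9.42 to 9.97 FPKM in untreated Ct and 8.79 to 11.2 FPKM in CS-exposed libraries, of which 2 of 7 passed the minimum.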

Additional observations from a re-analysis of the deposited data

Results flagged for a closer look

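The lowest and highest library of each group of 4 was compared with the other 3 by Dixon's ratio of the gap to the range, at its 95% critical value. Of 86 groups examined 8 passed, where chance alone gives about 4.3, and none of the 10 p53 and damage response genes was among them. Usp7 was 9.55 FPKM in untreated Ct replicate 2 and 10.7 to 10.9 FPKM in the other 3. Mdm4 was 7.93 FPKM in CS-exposed replicate 3 and 6.47 to 6.66 FPKM in the others. Apex2 was 0.523 FPKM in untreated Ct replicate 2 and 0.244 to 0.268 FPKM in the others. Cetn2 was 5.05 FPKM in CS-exposed replicate 1 and 7.50 to 7.71 FPKM in the others. Xrcc1 was 7.92 FPKM in CS-exposed replicate 2 and 8.27 to 8.32 FPKM in the others.

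Rad50 had such a library in each group. Untreated Ct replicate 3 held 1.21 FPKM of Rad50, and the others of its group 0.804 to 0.849 FPKM. CS-exposed replicate 4 held 1.83 FPKM, and the others of its group 1.18 to 1.21 FPKM. The summed blood and immune markers were 21.0 FPKM in CS-exposed replicate 4 and 0.910 to 4.05 FPKM in the other CS-exposed libraries, carried by hemoglobin (Hbb-bs 11.1 FPKM and Hba-a1 9.46 FPKM).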

How the results depend on the processing

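None of the 10 genes had an unadjusted limma p under 0.05 under any setting that kept all 8 libraries. Leaving out 1 library moved that count over 0 to 1 (Ddb2 without untreated Ct replicate 2, Ogg1 without CS-exposed replicate 1). Over these leave-one-out fits the log2 fold changes ran from -0.049 to 0.14 for Trp53, -0.076 to 0.58 for Cdkn1a, -0.013 to 0.11 for Mdm2, -0.0026 to 0.20 for Ccng1, -0.014 to 0.11 for Gadd45a, 0.14 to 0.36 for Ddb2, -0.095 to 0.018 for Xpc, -0.45 to -0.13 for Ogg1, 0.0083 (without CS-exposed replicate 1) to 0.35 (without CS-exposed replicate 4) for Apex1 and -0.13 (without untreated Ct or CS-exposed replicate 3) to -0.0082 (without CS-exposed replicate 4) for Parp1. Direction changed for Ccng1, Mdm2 and Gadd45a without untreated Ct replicate 3, for Cdkn1a without that library or CS-exposed replicate 4, for Trp53 without untreated Ct replicate 2 or CS-exposed replicate 1 or 3, and for Xpc without untreated Ct replicate 2 or 4 or CS-exposed replicate 1. In all, 160 of 173 alternative values for the 10 genes kept direction and side of the threshold. Of 459 for the other named genes 406 did, 24 lost the call, 7 gained one and 22 changed direction.

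The leave-one-out ranges of those that changed direction were -0.067 to 0.045 for Hipk2, -0.0022 to 0.060 for Usp7, -0.066 to 0.095 for Bax, -0.13 to 0.23 for Ccng2, -0.0037 to 0.12 for Gadd45b, -0.060 to 0.096 for Gadd45g, -0.024 to 0.32 for Apex2, -0.022 to 0.025 for Rpa1, -0.086 to 0.048 for Xrcc1 and -0.33 to 0.16 for H2afx. Gadd45g was 0.0051 with limma-voom, and Rpa1 -0.0010 with median centring and -0.010 with quantile normalization. Cetn2 (0.24 to 0.54) lost its call without untreated Ct replicate 1 or 4 or CS-exposed replicate 2, 3 or 4, Ercc3 (-0.41 to -0.25) without untreated Ct replicate 1, 3 or 4 or CS-exposed replicate 1, 3 or 4, and Rad50 (0.36 to 0.62) without any library other than untreated Ct replicate 3. With every library kept, Cetn2 lost it with no minimum FPKM (limma p of 0.058), without a trend (0.075) and with limma-voom (0.054), and Ercc3 with limma-voom (0.069). The count of nucleotide excision repair calls, 2 as reported, was 3 with median centring or quantile normalization, 1 with no minimum FPKM, a minimum of 5 FPKM, the replicate block or limma-voom, and 0 to 2 with a library left out (0 without untreated Ct replicate 1 or 4 or CS-exposed replicate 3 or 4). The count of base excision repair calls, 0 as reported, was 1 with a robust trend or the replicate block and 0 to 2 with a library left out, and that of the other p53 targets and of the family relatives 0 to 1 with a library left out.

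Genes with an adjusted p under 0.05 over the whole table numbered 0 with no minimum FPKM and without a trend, 2 with limma-voom and 0 to 1 with a library left out. Genes with an unadjusted p under 0.05 numbered 862 of 21019 tested with no minimum and 226 of 4822 with a minimum of 5 FPKM, since other numbers of genes were tested. They numbered 474 with median centring, 488 with quantile normalization, 468 with a robust trend, 482 with limma-voom and 418 to 525 with a library left out. Among them, the share lower in CS-exposed libraries was 43.1% as reported and 34.5% with a minimum of 5 FPKM, and it was 49.6% with median centring and 56.5% without CS-exposed replicate 3. Deviations of same-numbered libraries from their group means had correlations of 0.012 to 0.16 across genes, and CS-exposed replicate 1 correlated best with untreated Ct replicate 2 (0.055). No label says that a number marks a shared source. Xist was nevertheless alike in same-numbered libraries, which the block takes into account and the comparison as reported does not. The replicate block gave 522 genes with an unadjusted p under 0.05 and 5 with an adjusted p under 0.05, none of them among the 10 genes. It ended the calls of Ercc3 and Rad50, which left 0 in the double-strand break response, and kept that of Cetn2.

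Depth limits the low genes: Cdkn1a rested on 9 to 51 reads per library and Ogg1 on 35 to 74.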

Other observations

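Xist, the RNA that coats the inactive X chromosome in female cells, was listed at no more than 0.0113 FPKM in replicates 1 and 2 of both groups and at 41.1 to 49.0 FPKM in replicates 3 and 4. The paper describes 2 male and 2 female replicates in each group. The labels give no sex for a pool, and no comparison was built on it. Ccng1 stood at 193, 177, 188 and 181 FPKM in the former 4 libraries and at 126, 160.2, 169.9 and 166 FPKM in the latter, values noticed after they were seen and not tested.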
